A study of Homo sapiens and Mus musculus with 56 samples.

Results

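The matrix metalloproteinases (MMP), the ADAMTS proteases and the tissue inhibitors of metalloproteinases (TIMP) were followed in 5 human glioblastoma lines and in the mice that carried them as tumours. Members were taken by gene symbol: MMP, ADAMTS or TIMP followed by a number, on probe sets that name 1 gene. This gave 42 of 18417 human genes (21 MMP, 17 ADAMTS and 4 TIMP) and 43 of 19938 mouse genes (21 MMP, 18 ADAMTS and 4 TIMP). The rule itself used no measured value, apart from taking for each gene the probe set with the highest mean. It was set with earlier results of these data known.

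Affymetrix whole-transcript arrays measured 28 samples labelled as cultured cells (human arrays) and 28 labelled as tumours under the skin of nude mice (mouse arrays). All samples came from the lines SF295, U118, U87M2, DBM2 or U251M2 and had received vehicle or V-4084, a compound that blocks the receptor kinase MET, for 7 days. Cells received DMSO or V-4084 kept in DMSO at 0.01 M; the sources used here do not give the final concentration. Mice were inoculated in the flank with 500000 cells and received V-4084 at 30 mg per kg or a vehicle of MC 400 and Tween 80; nude mice lack mature T cells but keep macrophages, neutrophils, fibroblasts and vessels. The sources used here do not give the age of the mice. Each line and treatment had 3 arrays, except 2 for SF295 with vehicle and 2 with V-4084 on human arrays, and 2 for SF295 with vehicle and 2 for U251M2 with V-4084 on mouse arrays. The labels do not say that repeats were separate cultures or animals, so p-values describe the spread between arrays, which may be technical.

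Values are log2 intensities, and a value is compared between samples for 1 gene, never between genes. A gene was described as dim where its level lay under a reference set by olfactory receptor genes, which these cells are not known to use: the 95th percentile of their group means was 6.39 on human and 6.08 on mouse arrays. By this measure 34 of 42 human and 33 of 43 mouse members exceeded the reference in at least 1 group, against 76.7% and 69.9% of all genes. Every array lay nearest to an array of its own line, including the 3 human arrays titled DBM2 with V-4084 whose other label fields name SF295. A narrow spread of values (SD 1.75 to 1.90, against 2.03 or more on vehicle arrays) marked 3 human V-4084 arrays, of SF295, DBM2 and U251M2. Glial and neural stem genes were most evident on the human arrays of U251M2, where 7 of 8 passed the dim reference, and least on those of U118 and U87M2, where 3 of 8 did. Host cell markers were plain on the mouse arrays, with all 10 endothelial genes and 9 or 10 of 10 macrophage genes above the reference in each group. On the human arrays 3 to 6 of 9 skeletal muscle genes and 4 to 7 of 8 pericyte and smooth muscle genes passed it, by group. Of macrophage genes 2 to 4 of 9 passed there, and of endothelial genes 1 to 3 of 10. Skeletal muscle genes nevertheless varied together on same-numbered arrays of both platforms (deviations within groups, 27 pairs: Pearson r = 0.959, permutation p = 8e-05, 0.00072 after Benjamini-Hochberg adjustment over 9 marker lists; Spearman rho = 0.935, permutation p = 0.00013; r = 0.944 without the 2 pairs farthest from the median). None of the other 8 lists passed: fibroblast genes had r = 0.707 and macrophage genes 0.508 (adjusted p = 0.0707 each), while endothelial (-0.0388), neutrophil (0.0468) and glial genes (0.057) had an adjusted p of 0.893. For muscle genes the tie goes against the label of cultured cells, and a host part in the human values was not tested gene by gene. The members themselves did not track in this way: their median r over 38 shared symbols was 0.0879, against 0.07 for all 14334 shared genes, and 0 of 38 passed an adjusted p under 0.05. Because these are bulk samples, fewer cells of a type and less RNA per cell cannot be told apart.

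MMPs are zinc proteases that cut collagens, laminins, proteoglycans and other matrix and cell surface proteins. Most are made as inactive proenzymes, are switched on by other proteases, and are held in check by TIMPs, which bind the active site. ADAMTS proteases are secreted relatives with thrombospondin repeats: some trim procollagens, some cleave large proteoglycans such as versican, aggrecan and brevican, which are abundant in brain matrix, and ADAMTS13 cuts von Willebrand factor. In glioblastoma this system is studied for its part in invasion through brain tissue and in the growth of vessels, and several MMP genes are known targets of AP-1 and ETS transcription factors, which act downstream of receptor kinases such as MET.

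A cluster of MMP genes on human chromosome 11 held wide differences between lines, and the promoters of MMP7 and MMP10 are shown because each of these genes of the cluster was high in a single, different line. Each window holds the 100 bases before the transcript start on the minus strand, from RefSeq on GRCh38.p14: chr11:102530748-102530847 for MMP7 and chr11:102780629-102780728 for MMP10. Capitals mark an AP-1 motif (TGACTCA or TGAGTCA) and a TATA motif (TATAAA, or TTTATA on the other strand), which do not overlap.
MMP7: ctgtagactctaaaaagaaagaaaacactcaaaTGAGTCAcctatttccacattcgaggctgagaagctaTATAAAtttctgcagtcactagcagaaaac
MMP10: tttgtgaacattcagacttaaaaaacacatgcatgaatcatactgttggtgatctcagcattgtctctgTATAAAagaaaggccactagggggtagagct
The AP-1 motif of MMP7 begins at base -67 and its TATA motif at base -30, counted from the start, and the TATA motif of MMP10 begins at base -31. Of the 42 human members 24 had a promoter in the table used, 25 promoters in all, each running from 250 bases before to 50 after the start. In these windows MMP7 alone held the AP-1 motif (4% of member promoters, near the 4.95% of all 35116 promoters), and 7 member promoters held the TATA motif (28%, against 11.5%). MMP1, MMP3, MMP12 and MMP13 of the cluster had no promoter there and were not searched. The same holds for MMP2, MMP9, ADAMTS1 and TIMP2, among others. The members that rose with V-4084 in U87M2 and had a promoter there (MMP11, ADAMTS3, ADAMTS12, ADAMTS14, TIMP3 and TIMP4) held neither motif; a match, or its absence, describes these letters only.

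Under vehicle, the level of most members depended on the line. On human arrays 34 of 42 members (81.0%) differed between the 5 lines (limma F test, adjusted p under 0.05), where 58.4% of all genes did, and the median range over lines was 1.23 for members and 0.59 for all genes. DBM2 was the highest line for 11 members (26.2%, against 16.1% of all genes). This ranks line means, called or not, and MMP25 and MMP26 among the 11 did not differ between lines. The calls covered 2 of 3 collagenases, both gelatinases, all 3 stromelysins, 4 of 5 membrane-bound MMPs, all 6 hyalectan-cleaving ADAMTS genes and all 4 TIMPs. MMP12 and ADAMTS20 were among the calls although dim in every group.

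The chromosome 11 genes stand in the order MMP7, MMP20, MMP27, MMP8, MMP10, MMP1, MMP3, MMP12 and MMP13. MMP7, matrilysin, read 8.44 and 8.64 in SF295, 6.04 to 6.46 in DBM2, 5.58 to 6.03 in U251M2, 5.46 to 5.72 in U87M2 and 4.62 to 4.75 in U118. Both SF295 arrays lay above every other vehicle array, and array values in SF295 exceeded those of the next line, DBM2, by 2.33 ± 0.17 (SE; limma adjusted p = 2.81e-11). The DBM2 mean, 6.22, lay under the dim reference, and against that reference SF295 was at least 4.44-fold higher. MMP10, stromelysin-2, read 8.23, 8.90 and 9.18 in DBM2, while the other 11 vehicle arrays lay between 4.77 and 5.06, under the dim reference. Array values in DBM2 exceeded those of U118, the next line, by 3.75 ± 0.20 (limma adjusted p = 1.12e-14), and DBM2 was at least 5.21-fold above the dim reference.

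MMP1, interstitial collagenase, had a graded order from U118 through DBM2 to SF295, each differing from the next. It read 8.73, 8.84 and 8.92 in U118, 7.55, 7.57 and 8.49 in DBM2, 6.92 on both SF295 arrays, 5.24, 5.88 and 6.18 in U87M2, and 4.53, 4.64 and 4.76 in U251M2. Lines differed by the F test (limma, adjusted p = 8.45e-13). U118 and DBM2 arrays did not overlap. U87M2 and U251M2 lay under the dim reference, so their order is not read here, and U118 was at least 5.43-fold above that reference.

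MMP13, collagenase-3, was highest in SF295 (6.50 and 6.82), followed by DBM2 (5.66, 5.77 and 6.47), with the other 3 lines between 4.60 and 5.07. MMP3, stromelysin-1, passed the dim reference in U118 alone as a mean (6.32, 6.40 and 7.08), which did not differ from SF295 (6.00 and 6.30; adjusted p = 0.273). MMP8, MMP12, MMP20 and MMP27 were dim in every vehicle group. The highest line was SF295 for MMP7 and MMP13, at the ends of the cluster, DBM2 for MMP10, and U118 for MMP1 and MMP3, which lie next to each other.

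**Figure D1:**
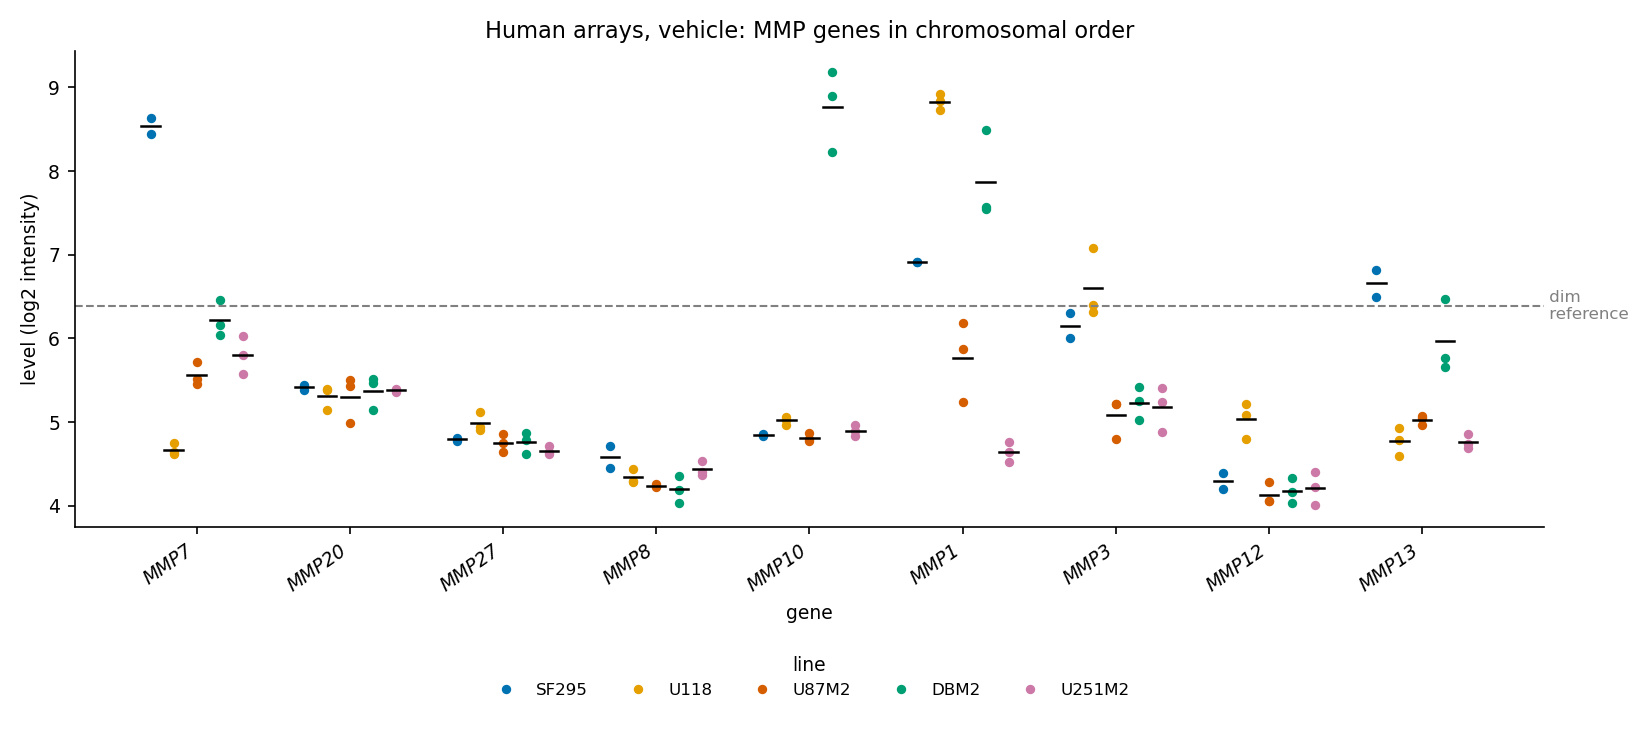
Vehicle levels of the 9 chromosome 11 members on human arrays, in chromosomal order (x axis, gene; y axis, log2 intensity; points, arrays coloured by line; bars, line means; dashed line, dim reference). MMP7 stands out in SF295, MMP10 in DBM2, and MMP1 falls from U118 (8.73 to 8.92) through DBM2 to SF295 (6.92), with the other lines under the dim reference.

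The gelatinases, which cut denatured collagen and basement membrane collagen, behaved differently from one another. MMP2 was bright in every line, reading 12.03 to 12.24 in U87M2, 11.94 to 12.01 in U118, 11.30 and 11.52 in SF295, 10.83 to 11.22 in U251M2 and 10.93 to 11.13 in DBM2. U87M2 and U118 did not differ (adjusted p = 0.547), and neither did SF295 and U251M2, or U251M2 and DBM2. MMP9 read 6.83 on both SF295 arrays and 6.23 to 6.54 on all others, close to the dim reference, and SF295 exceeded U87M2 by 0.43 ± 0.14 (adjusted p = 0.0208).

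Among membrane-bound MMPs, MMP15 stood out in U251M2, with 8.14, 8.18 and 8.78 against 5.78 to 6.64 elsewhere (1.79 ± 0.14 over U118, limma adjusted p = 3.36e-11). MMP16 had the opposite shape, with a trough in DBM2. It read 6.44, 6.85 and 6.96 there, 7.58 and 7.65 in SF295, 8.12, 8.24 and 8.62 in U251M2, 8.89, 8.94 and 9.13 in U118, and 9.17, 9.39 and 9.62 in U87M2, a range of 6.27-fold. Only U87M2 and U118 did not differ as neighbours (adjusted p = 0.0825). MMP17, anchored by a lipid tail, was highest in DBM2 (7.85, 8.24 and 8.39) and MMP24 in U118 (7.10 to 7.22).

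The ADAMTS genes sorted the lines in several ways. ADAMTS12, which can cleave cartilage oligomeric matrix protein (COMP), read 9.44 to 9.70 in U118, 9.12 to 9.18 in DBM2, 8.60 to 9.16 in U87M2, 7.05 to 7.20 in U251M2 and 6.08 and 6.12 in SF295 (limma F test, adjusted p = 4.47e-18). SF295 lay under the dim reference, above which U118 was at least 8.88-fold higher. ADAMTS16 ran the other way for U118 and U251M2: 9.83, 10.00 and 10.12 in U251M2, 9.10 to 9.19 in DBM2, and 7.01 to 7.22 in U118. ADAMTS1, a versican-cleaving protease, was high in DBM2 (8.73 to 9.07) and U118 (8.81 to 8.87), which did not differ (adjusted p = 0.848), and lowest in SF295 (6.12 and 6.49).

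Single lines stood out for several further ADAMTS genes. ADAMTS19 read 6.92 and 7.36 in SF295 and at most 5.21, under the dim reference, elsewhere (2.06 ± 0.17 over DBM2, adjusted p = 2.86e-10), and ADAMTS2, a procollagen N-proteinase, was also highest there (7.63 and 7.75). ADAMTS5 and ADAMTS8, both able to cleave hyalectan proteoglycans, were highest in U118: ADAMTS5 read 7.87 to 7.95 there and 5.96 to 6.56 elsewhere, and ADAMTS8 7.84 to 8.07 there and 6.47 to 6.77 elsewhere. ADAMTS4 and ADAMTS9, of the same group, were highest in DBM2, with U251M2 next. ADAMTS3 separated DBM2 (7.40 to 7.92) and U87M2 (7.09 to 7.48) from the other 3 lines (5.50 to 6.00).

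TIMP3, the inhibitor that stays bound to the matrix, was the most uneven of the TIMPs. It read 11.39, 11.45 and 11.55 in DBM2, 9.62 and 9.97 in SF295, 8.83, 8.93 and 9.28 in U118, 8.25, 8.55 and 8.56 in U87M2, and 7.85, 8.08 and 8.27 in U251M2. The 10.5-fold range was led by DBM2, which exceeded SF295 by 1.67 ± 0.20 (adjusted p = 1.33e-07); U87M2 and U251M2 did not differ as neighbours.

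TIMP1 set U251M2 apart, with 8.82, 9.24 and 9.53 against 10.15 to 10.82 on the other arrays. TIMP2 moved over a 1.82-fold range, from 11.34 on both SF295 arrays to 10.45 to 10.51 in DBM2. TIMP4 was highest in U87M2 (8.62, 8.86 and 8.94) and lowest in U251M2 (7.19, 7.37 and 7.37).

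**Figure D2:**
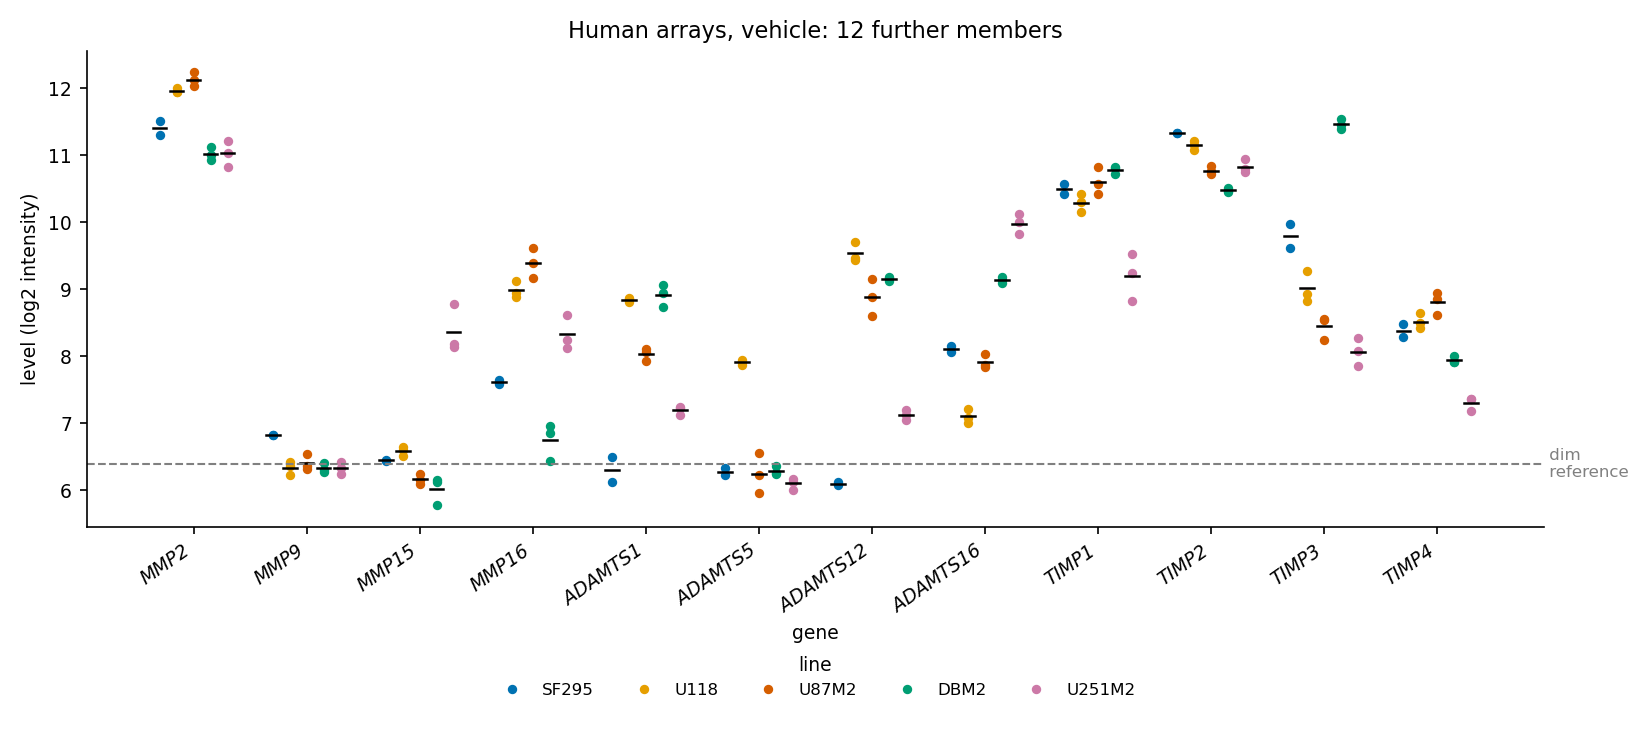
Vehicle levels of 12 further members on human arrays (x axis, gene; y axis, log2 intensity; points, arrays coloured by line; bars, line means; dashed line, dim reference). TIMP3 is highest in DBM2 (11.39 to 11.55), MMP15 and ADAMTS16 in U251M2, and MMP2 is bright in all lines.

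On the mouse arrays, read as host genes of the tumours, 31 of 43 members (72.1%) differed between lines under vehicle, where 54.3% of all genes did, with a median range of 0.45 for members and 0.39 for all genes. DBM2 tumours were the highest for 14 members (32.6%, against 16.2% of all genes). SF295 tumours were the highest for 1 (2.33%, against 20.9%), which was Mmp12. Here too line means were ranked, called or not, and Adamts10, Mmp1b and Mmp2 among the 14 did not differ between lines. Calls fell in 6 of 7 hyalectan-cleaving ADAMTS genes, 3 of 4 TIMPs, 2 of 3 stromelysins and 1 of 2 gelatinases. Mmp8, Mmp20, Mmp27 and Adamts20 were among the calls although dim in every group. Medians of the deposited vehicle arrays differed too, at 6.11 and 6.17 in SF295 and 6.27 to 6.29 in U251M2. Their part in the smaller differences was not tested.

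Mmp9 read 8.62, 8.77 and 10.28 in DBM2 tumours and 6.47 to 7.57 on the other 11 vehicle arrays. DBM2 exceeded U251M2, the next line, by 1.93 ± 0.27 (3.81-fold, limma adjusted p = 5.95e-05), and the other neighbours did not differ beyond their spread. Timp1 was likewise highest in DBM2 and lowest in U118: 10.45, 10.45 and 10.46 in DBM2, 8.71, 9.05 and 9.37 in U251M2, 8.82 and 8.83 in SF295, 8.53, 8.56 and 9.28 in U87M2, and 7.46, 7.46 and 7.72 in U118, a 7.50-fold range (adjusted p = 2.99e-09).

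DBM2 tumours also had the highest host level of Mmp10 (6.91, 7.66 and 7.95), Adamts6 (7.88, 8.03 and 8.38), Mmp19 and Timp3 (9.42, 9.63 and 9.89). For Timp3 the lead over U251M2 was within the spread (0.50, adjusted p = 0.0563), while Mmp10 exceeded U251M2 by 0.61 (adjusted p = 0.0433), although 1 DBM2 array lay below the highest U251M2 array, 6.99. Mmp13 spread widely within groups, from 7.62 to 10.73 over the 3 DBM2 arrays, and no neighbouring lines differed although the lines as a whole did (adjusted p = 0.0013).

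Beside these levels, the mean over the fibroblast list (12 genes, all above the dim reference) was highest in DBM2 tumours. It read 9.02 to 9.23 there, against 8.04 to 8.93 over the other vehicle arrays. The macrophage and monocyte list was lowest in DBM2, 7.87 to 8.12, and the neutrophil list ran from 5.33 to 5.75 over all vehicle arrays. What part these cells had in the Mmp9 and Timp1 levels was not tested. Mmp12, macrophage elastase, was highest in SF295 (7.44 and 7.60; 0.77 over U118, adjusted p = 0.0145), and so was the macrophage and monocyte list (9.28 to 9.36, against 7.87 to 9.24 elsewhere); its part was likewise not tested.

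U118 tumours had the highest Mmp3 (7.69, 7.86 and 8.22) and Adamts15 (7.37, 7.48 and 7.57), though neither exceeded the next line beyond the spread. Adamts4 and Adamts16 were high in DBM2 and U251M2, which did not differ, and both were lowest in U118. Mmp16 was lowest in DBM2 (5.47 to 5.73) and SF295 (5.84 and 5.85), both dim. Mmp2 was bright in all 5 and did not differ between them (9.94 to 11.07, adjusted p = 0.757), and Timp4 was dim throughout. Timp2 was highest in U118 (10.10 to 10.38), not beyond SF295 (limma adjusted p = 0.886). Adamts1 was highest in U87M2 (7.68 to 7.86), by 0.44 ± 0.11 over U251M2 (limma adjusted p = 0.0178).

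**Figure D3:**
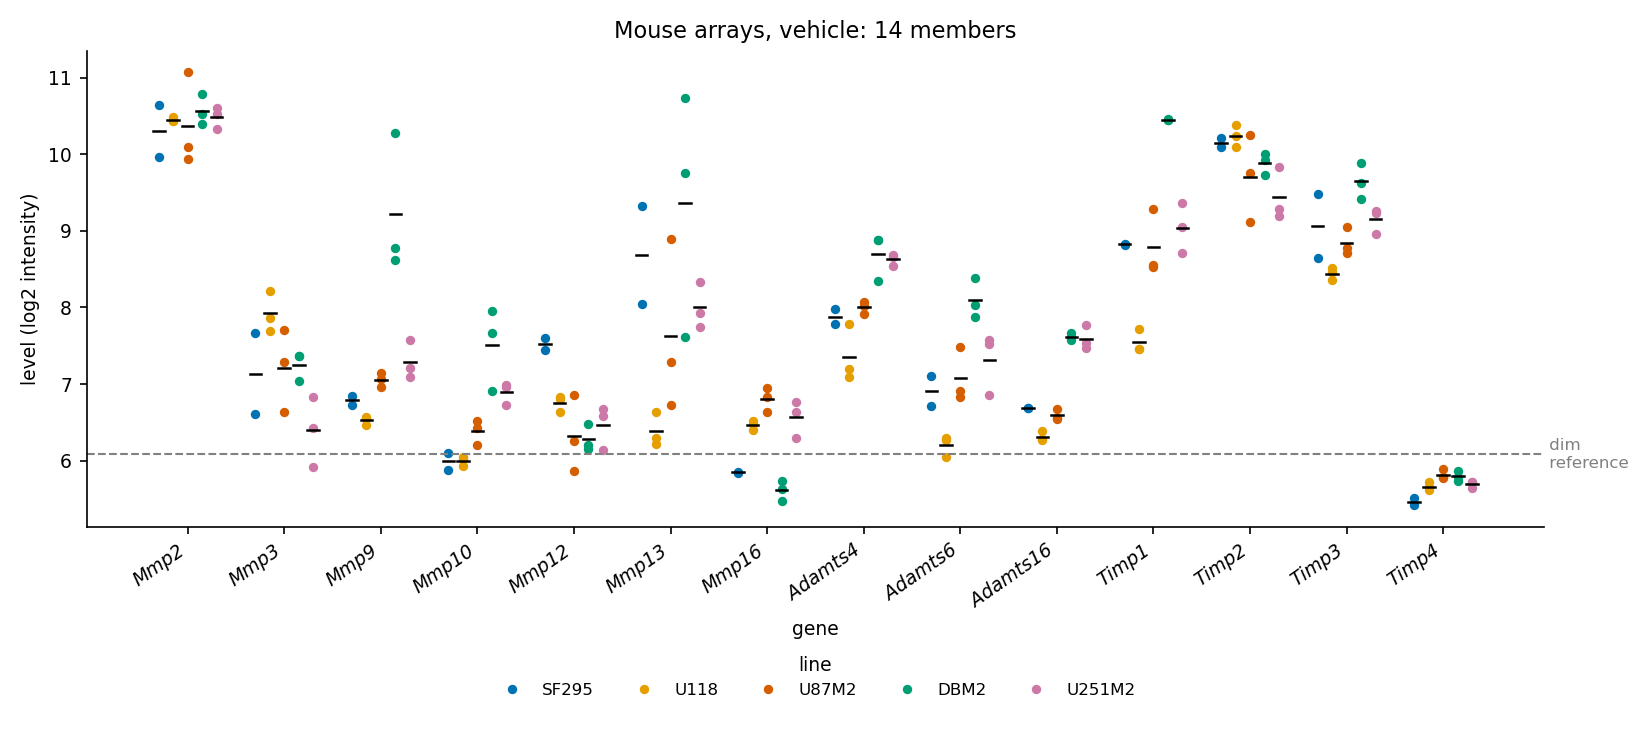
Vehicle levels of 14 members on mouse arrays (x axis, gene; y axis, log2 intensity; points, arrays coloured by the line that formed the tumour; bars, line means; dashed line, dim reference). DBM2 tumours stand highest for Mmp9 (8.62 to 10.28) and Timp1 (10.45 to 10.46).

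Over 38 members on both platforms, 12 (31.6%) had the same highest line on human and mouse arrays, as did 31.5% of 14334 shared genes. Among the 24 members called between lines on both platforms, 9 (37.5%) did: MMP10, ADAMTS4, ADAMTS20, TIMP1 and TIMP3 with DBM2, MMP3 and ADAMTS5 with U118, MMP16 with U87M2, and ADAMTS17 with U251M2. Of these, MMP10 alone exceeded the next line on both platforms (limma adjusted p = 1.12e-14 on human and 0.0433 on mouse arrays). ADAMTS20 was dim in every group on both platforms. Probes of one species can take up RNA of the other, and this was not tested. MMP9 and Mmp9 differed in place: SF295 on human arrays, DBM2 on mouse arrays.

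With V-4084, members were called on human arrays in U87M2 alone. There 12 of 42 members (28.6%) passed an adjusted p under 0.05, with 15.0% of all genes called. Of these 10 rose (23.8%; 5.37% of all genes rose) and 2 fell, MMP1 and ADAMTS1 (9.62% of all genes fell). None of the 12 had overlapping groups, which is no separate test because they were called on these same arrays. Over all genes, called or not, 39.6% did not overlap. The median difference was 0.13 over members and 0.02 over all genes. The risers included 3 of 4 TIMPs and 2 of 3 procollagen-processing ADAMTS genes.

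MMP13 read 4.97, 5.05 and 5.07 with vehicle and 5.93, 6.19 and 6.29 with V-4084, a rise in array values of 1.11 ± 0.19 (limma adjusted p = 0.000153). The groups did not overlap, but every array lay under the dim reference, so no fold is given. MMP1 went the other way, from 5.24, 5.88 and 6.18 to 4.58, 4.71 and 4.74, and fell by 1.09 on the log2 scale (SE 0.27, adjusted p = 0.005). It too was dim in both groups, and without vehicle repeat 3 its adjusted p was 0.0545. These are both collagenases of the chromosome 11 cluster, and they moved in opposite directions.

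TIMP2, which inhibits MMPs and also takes part in activating proMMP2 at the cell surface, had the smallest p of the members. It read 10.72, 10.76 and 10.84 with vehicle and 11.43, 11.47 and 11.55 with V-4084 (0.71 ± 0.10, 1.63-fold, adjusted p = 1.36e-05). TIMP3 rose from 8.25, 8.55 and 8.56 to 9.27, 9.28 and 9.29 (0.82 ± 0.18, adjusted p = 0.00143). TIMP4 rose less, from 8.62, 8.86 and 8.94 to 9.15, 9.21 and 9.26 (0.40 ± 0.12, adjusted p = 0.0235), and its call was lost without vehicle repeat 2 (adjusted p = 0.136), V-4084 repeat 2 (0.0917) or V-4084 repeat 3 (0.0592). In none of the 3 did V-4084 and vehicle arrays overlap. TIMP1 was 0.30 ± 0.15 higher without passing the test (adjusted p = 0.191).

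The procollagen-processing ADAMTS14 rose from 6.80, 7.12 and 7.38 to 7.96, 8.01 and 8.09 (0.92 ± 0.16, 1.89-fold, adjusted p = 0.000203), and ADAMTS3 from 7.09, 7.19 and 7.48 to 7.84, 7.88 and 8.09 (0.68 ± 0.15, adjusted p = 0.00226). ADAMTS2, the other gene of that group, was 0.17 higher (adjusted p = 0.47). ADAMTS12 rose from 8.60, 8.89 and 9.16 to 9.47, 9.50 and 9.55 (0.62 ± 0.12, adjusted p = 0.000636). MMP11, stromelysin-3, a protease often made by stromal cells around carcinomas, rose from 8.07, 8.57 and 8.66 to 8.94, 9.14 and 9.32 (0.70 ± 0.15, adjusted p = 0.00127). In each of the 4 called genes the V-4084 arrays lay above all vehicle arrays.

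ADAMTS1 fell from 7.93, 8.06 and 8.11 to 7.31, 7.45 and 7.58 (-0.58 ± 0.17, 1.50-fold, adjusted p = 0.0187), without overlap. Its call was lost without vehicle repeat 2 (adjusted p = 0.0502) or 3 (0.0803), or V-4084 repeat 1 (0.0944) or 2 (0.0559). ADAMTS9, of the same proteoglycan-cleaving group, rose by 0.45 ± 0.12 (adjusted p = 0.0111) while dim in both groups, and lost its call without vehicle repeat 3 (0.0598) or with quantile normalization (0.0785). MMP16 rose by 0.52 ± 0.18 (adjusted p = 0.046); 15 of 28 left-out arrays ended that call, with an adjusted p up to 0.2, and so did the mean of its 2 probe sets (0.34, adjusted p = 0.0973). The gelatinases did not pass: MMP2 differed by 0.04 ± 0.17 (adjusted p = 0.908) and MMP9 by 0.25 ± 0.13 (adjusted p = 0.206).

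**Figure D4:**
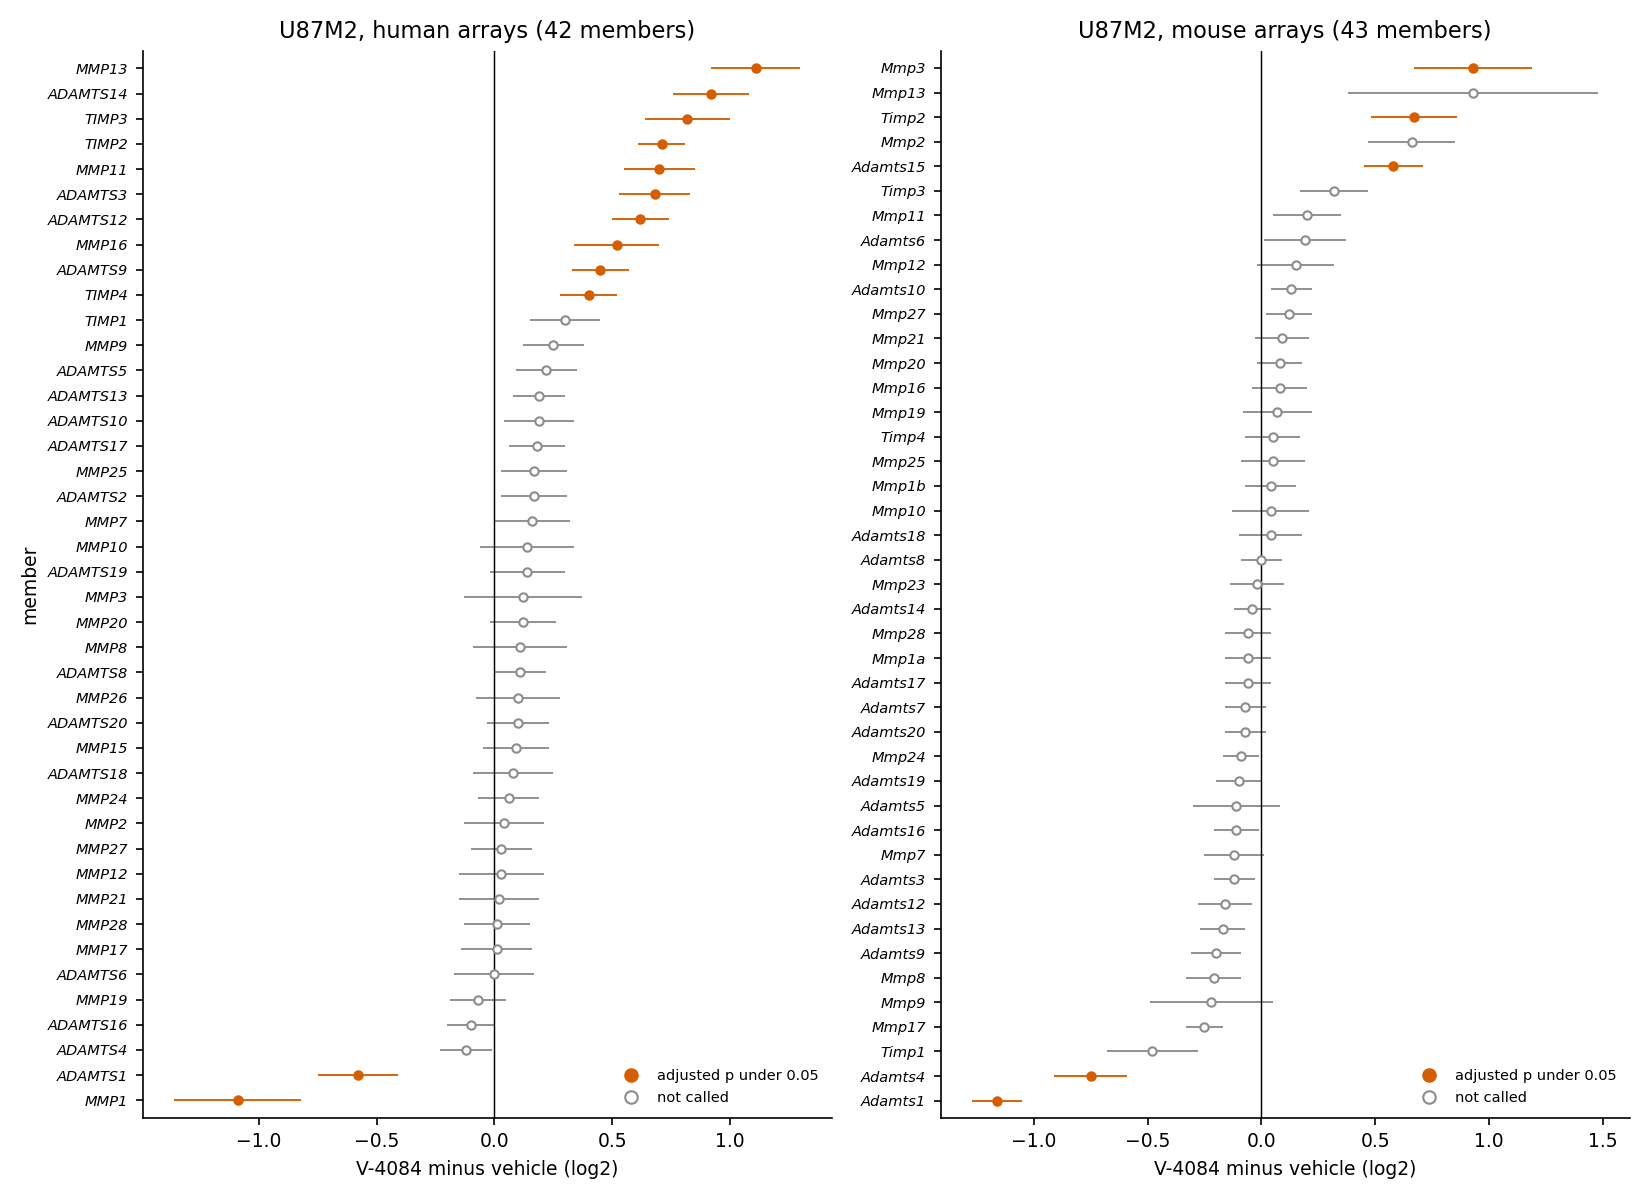
V-4084 minus vehicle in U87M2 (x axis, log2; points, limma estimates; bars, standard errors) for the 42 human and 43 mouse members (y axis), filled where the adjusted p was under 0.05. On human arrays 10 members lie to the right and 2 to the left among those called; on mouse arrays 3 and 2.

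Other genes of the same system moved in U87M2 too; over all genes 5.37% rose, 9.62% fell and 15.0% did either. Among 12 AP-1 and ETS factors, which bind promoters of several MMP genes, 6 fell and 0 rose: FOSL1 by 2.08, ETV5 by 1.15, ETS1 by 0.70 and JUN by 0.62 fell the most on the log2 scale. In the plasminogen activator system, which can activate proMMPs, 4 of 8 genes fell and 2 rose, with the urokinase receptor PLAUR at -1.34 ± 0.15, the serpin SERPINE2 at -1.29 ± 0.18, urokinase PLAU at -0.71 ± 0.14 and PLGRKT at -0.65 ± 0.15. Of 16 activators and brakes of metalloproteinases 3 fell and 3 rose. TFPI2, an inhibitor of plasmin, fell by 2.10 and the procollagen enhancer PCOLCE2 fell by 1.00, while A2M, which traps proteases of many kinds, rose by 1.53 ± 0.11 and THBS1, a thrombospondin, by 0.89 ± 0.21.

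Substrates rose where they changed: of 15 proteoglycan and matrix genes 5 rose and 0 fell, led by DCN (1.97 ± 0.15, adjusted p = 3.73e-10), BGN (1.48 ± 0.16), FBN2 (0.81 ± 0.15) and HSPG2 (0.66 ± 0.16). Among 12 ADAM family genes, several of them for membrane proteases that release growth factors, ADAM12 rose by 0.75 ± 0.16. ADAM8 fell by 0.97 and ADAM9 fell by 0.71. Of 6 ADAMTS-like proteins, which lack the protease domain, ADAMTSL1 fell by 0.38. These 2 lists had 25% and 16.7% of genes called, the nearest to the share over all genes. Substrates had 33.3%, activators and brakes 37.5%, AP-1 and ETS factors 50% and plasminogen genes 75%. The lists were chosen with earlier results of these data known, so these shares are no independent test. For 9 cathepsins and cystatins the count was 0 (limma, adjusted p under 0.05), with a median difference of -0.03.

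Genes of cell type marker lists moved too. These lists share genes with the substrate list: DCN is also a fibroblast gene and VWF an endothelial gene. The fibroblast list was not confined to 1 line. On human vehicle arrays from 8 (U251M2) to 12 (U118) of its 12 genes passed the dim reference. In U87M2 on human arrays 10 of 12 fibroblast genes rose, with the list mean at 8.58 to 8.96 with vehicle and 9.64 to 9.66 with V-4084, and 11 of the 12 genes above the dim reference in each group. Of 8 pericyte and smooth muscle genes 3 rose (list mean 7.46 to 7.74, then 7.86 to 8.03). The skeletal muscle list did not move (5.93 to 6.19, then 6.03 to 6.16; 0 of 9 called), and the macrophage and monocyte list ran from 6.21 to 6.34 over both groups with 1 of 9 genes called, CD68, lower. Endothelial genes were called in both directions (EMCN higher, PECAM1 and TEK lower). The part of fibroblast-like cells, human or host, in the rise of TIMP, ADAMTS and MMP genes was not tested.

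In the other 4 lines 0 of 42 members passed on human arrays (limma), with 0% of all genes called in SF295, DBM2 and U251M2 and 0.755% in U118 (0.109% higher and 0.646% lower). At an unadjusted p under 0.05 there were 5 members in SF295, 5 in U118, 8 in DBM2 and 3 in U251M2; leaving out DBM2 V-4084 repeat 3 gave 6 calls over the 4 lines, and leaving out SF295 V-4084 repeat 1 gave 4. Array weights gave 20 calls in these lines and leaving out the 3 narrow-range arrays gave 3. In SF295 the cluster genes had the largest differences: MMP1 read 6.92 on both vehicle arrays and 8.06 and 8.09 with V-4084 (1.16 ± 0.33, adjusted p = 0.419), and MMP13 6.50 and 6.82, then 7.45 and 8.06 (1.10 ± 0.23, adjusted p = 0.242); both pairs lay apart, as did those of 29.4% of all genes in SF295. In U118, MMP1 was 0.82 lower with V-4084 (7.78, 7.93 and 8.31, adjusted p = 0.205), and ADAMTS8 was 0.45 higher (adjusted p = 0.0583). In DBM2, MMP16 read 6.44, 6.85 and 6.96 with vehicle and 5.72, 6.13 and 6.17 with V-4084 (adjusted p = 0.111).

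Averaged over the 5 lines, 6 of 42 members (14.3%) passed on human arrays, with 11.6% of all genes called, and all 6 were higher with V-4084 (3.38% of all genes were called higher). MMP13 was 0.52 ± 0.09 higher (adjusted p = 0.000869) and TIMP3 0.31 ± 0.08 (adjusted p = 0.0189), each with the same sign in 5 of 5 lines. MMP13 was dim on every array of U118, U87M2 and U251M2, and its DBM2 group means lay under the dim reference too. The other calls were ADAMTS14 (0.25, higher in 3 of 5 lines), MMP15 (0.21), MMP27 (0.19, dim on every array) and ADAMTS13 (0.16), with adjusted p from 0.0336 to 0.0481. Their calls lay close to the threshold: of 28 left-out arrays 22 ended the call of MMP27, 19 that of ADAMTS13, 18 that of MMP15 and 11 that of ADAMTS14. MMP27 was at 0.08 with quantile normalization (adjusted p = 0.3) and 0.10 with array weights (0.243), and without the narrow-range arrays MMP27 (0.13, adjusted p = 0.125) and ADAMTS13 (0.11, adjusted p = 0.103) lost their calls. Without U87M2 none of the 6 passed, MMP13 standing at 0.38 (adjusted p = 0.159) and TIMP3 at 0.18 (adjusted p = 0.318). The count fell to 1 without SF295 vehicle repeat 1, an array whose omission moved TIMP3 to an adjusted p of 0.0545; 13 of 28 left-out arrays moved the count by over 1.5 times, to between 1 and 3.

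The effect of V-4084 itself differed between lines for 8 of 42 human members (19.0%; 5.53% of all genes). For MMP1 the differences were 1.16 in SF295 and 0.17 in U251M2, against -1.09 in U87M2, -0.82 in U118 and -0.41 in DBM2 (F test, adjusted p = 0.00478). For TIMP2 the V-4084 arrays lay above vehicle in U87M2 by 0.71 and below it in SF295 by 0.23 (adjusted p = 0.00172), and the MMP16 differences were 0.61 in U118, 0.52 in U87M2 and -0.74 in DBM2 (adjusted p = 0.00377), of which U87M2 alone was called by itself. The other 5 were MMP13, ADAMTS12, ADAMTS9, ADAMTS14 and ADAMTS3. Without U87M2 the count was 0, and single left-out arrays gave 3 to 11, with 3 without U87M2 vehicle repeat 1 or without U87M2 V-4084 repeat 3.

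In the hosts of U87M2 tumours 5 of 43 mouse members (11.6%) were called, with 3.72% of all genes called (2.49% higher and 1.22% lower). Adamts1 had the smallest p of the members, reading 7.68, 7.84 and 7.86 with vehicle and 6.54, 6.65 and 6.71 with V-4084. It fell by 1.16 on the log2 scale (SE 0.11, 2.24-fold, limma adjusted p = 7.22e-07), without overlap. Adamts4, an aggrecan- and versican-cleaving relative, fell from 7.92, 8.02 and 8.07 to 7.16, 7.29 and 7.30 (-0.75 ± 0.16, adjusted p = 0.00533). Both calls held without any single array.

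Adamts15, of the same group, rose from 6.12, 6.39 and 6.56 to 6.78, 6.97 and 7.05 (0.58 ± 0.13, adjusted p = 0.0132), a call lost without vehicle repeat 3 (adjusted p = 0.107) or V-4084 repeat 1 (0.0812). Mmp3, stromelysin-1, rose from 6.63, 7.29 and 7.70 to 8.07, 8.11 and 8.22 (0.93 ± 0.26, adjusted p = 0.0461), and Timp2 from 9.12, 9.75 and 10.25 to 10.30, 10.36 and 10.46 (0.67 ± 0.19, adjusted p = 0.0419). The vehicle arrays of both were widely spread, with repeat 3 the lowest. Without it Mmp3 was at 0.64 (adjusted p = 0.286) and Timp2 at 0.38 (adjusted p = 0.317); in all 14 of 28 left-out arrays ended the Mmp3 call and 8 the Timp2 call.

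Mmp2 was 0.66 ± 0.19 higher in U87M2 hosts without passing the test (adjusted p = 0.0547), its arrays overlapping because vehicle repeat 2 read 11.07. Timp1 was 0.48 ± 0.20 lower (adjusted p = 0.237), Timp3 0.32 ± 0.15 higher (adjusted p = 0.303), Mmp9 0.22 ± 0.27 lower (adjusted p = 0.802) and Timp4 0.05 higher while dim. The count of calls fell to 2 without U87M2 vehicle repeat 3 or without U87M2 V-4084 repeat 1, and to 3 without U87M2 vehicle repeat 1, U87M2 V-4084 repeat 2 or 3, DBM2 vehicle repeat 2 or DBM2 V-4084 repeat 3. Of the fibroblast list 1 of 12 genes rose in these hosts, Fbln1, with list means of 8.04 to 8.93 with vehicle and 8.54 to 9.08 with V-4084. Of 10 macrophage genes Csf1r (0.52) and Adgre1 (0.45) rose. Of 10 endothelial genes 3 were called: Cldn5, a tight junction gene, at -1.05 ± 0.15, Vwf at 0.55 ± 0.12 and Tek at 0.43 ± 0.11, with the list mean at 8.51 to 8.63 with vehicle and 8.45 to 8.77 with V-4084. Beside the fall of Adamts1 and Adamts4, the skeletal muscle list read 6.54 to 7.53 and then 6.36 to 6.56, with 0 of 10 genes called; the part of these cells was not tested.

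Around the members, 4 of 12 AP-1 and ETS factors fell in U87M2 hosts and 0 rose: Jun fell by 0.58, Etv4 by 0.45, Fos by 0.44 and Etv5 by 0.42. Plau, urokinase, fell by 0.69 on the log2 scale, the single call among 8 plasminogen genes. The collagen-cleaving cathepsin gene Ctsk rose by 0.81 ± 0.21 and the cathepsin inhibitor Cst3 by 0.67 ± 0.09, out of 9 genes. Of 16 activators and brakes Pcsk6, a proprotein convertase, fell by 0.51, and of 13 substrates Vwf rose by 0.55 ± 0.12. No ADAM family gene was called among 12 (limma).

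In the other 4 tumour lines 0 of 43 mouse members passed, where at most 0.0401% of all genes did (in U251M2, 0.0251% higher and 0.0150% lower). At an unadjusted p under 0.05 there were 7 members in SF295, 3 in U118, 1 in DBM2 and 10 in U251M2. The largest in SF295 was Mmp12, at 7.44 and 7.60 with vehicle and 8.39, 8.44 and 8.50 with V-4084 (0.92, unadjusted p = 7.93e-05, adjusted p = 0.2). In U251M2, Timp1 was 0.71 higher (adjusted p = 0.259) and Adamts16 0.42 higher (adjusted p = 0.225), while in U118 Adamts1 was 0.45 lower (adjusted p = 0.288).

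The average over 5 lines gave 0 of 43 calls (limma; 0.0702% of all genes, 0.0502% higher and 0.0201% lower, and 6 members at an unadjusted p under 0.05). The V-4084 effect differed between lines for Adamts1 alone (2.33% of members; 0.341% of all genes; F test, adjusted p = 6.25e-05). Adamts1 differences were -1.16 in U87M2 and -0.45 in U118, against 0.06 in DBM2, 0.19 in SF295 and 0.35 in U251M2. Vehicle and V-4084 arrays lay apart in U87M2, U118 and U251M2, where those of 18.5%, 14.2% and 33.1% of all genes did. In DBM2 they overlapped, and in SF295 a vehicle and a V-4084 array both read 7.42. Without U87M2 the F test gave 0 calls.

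Set side by side in U87M2, ADAMTS1 fell on human arrays (-0.58 ± 0.17) and Adamts1 on mouse arrays (-1.16 ± 0.11), and TIMP2 (0.71 ± 0.10) and Timp2 (0.67 ± 0.19) rose on both. The platforms were otherwise unlike in what passed. MMP13 rose on human arrays, while Mmp13 was 0.93 higher with a wide error and no call; ADAMTS14 and ADAMTS3 rose, while Adamts14 and Adamts3 lay at -0.04 and -0.12. ADAMTS4 lay at -0.12 where Adamts4 fell. A difference between the platforms was not tested.

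**Figure D5:**
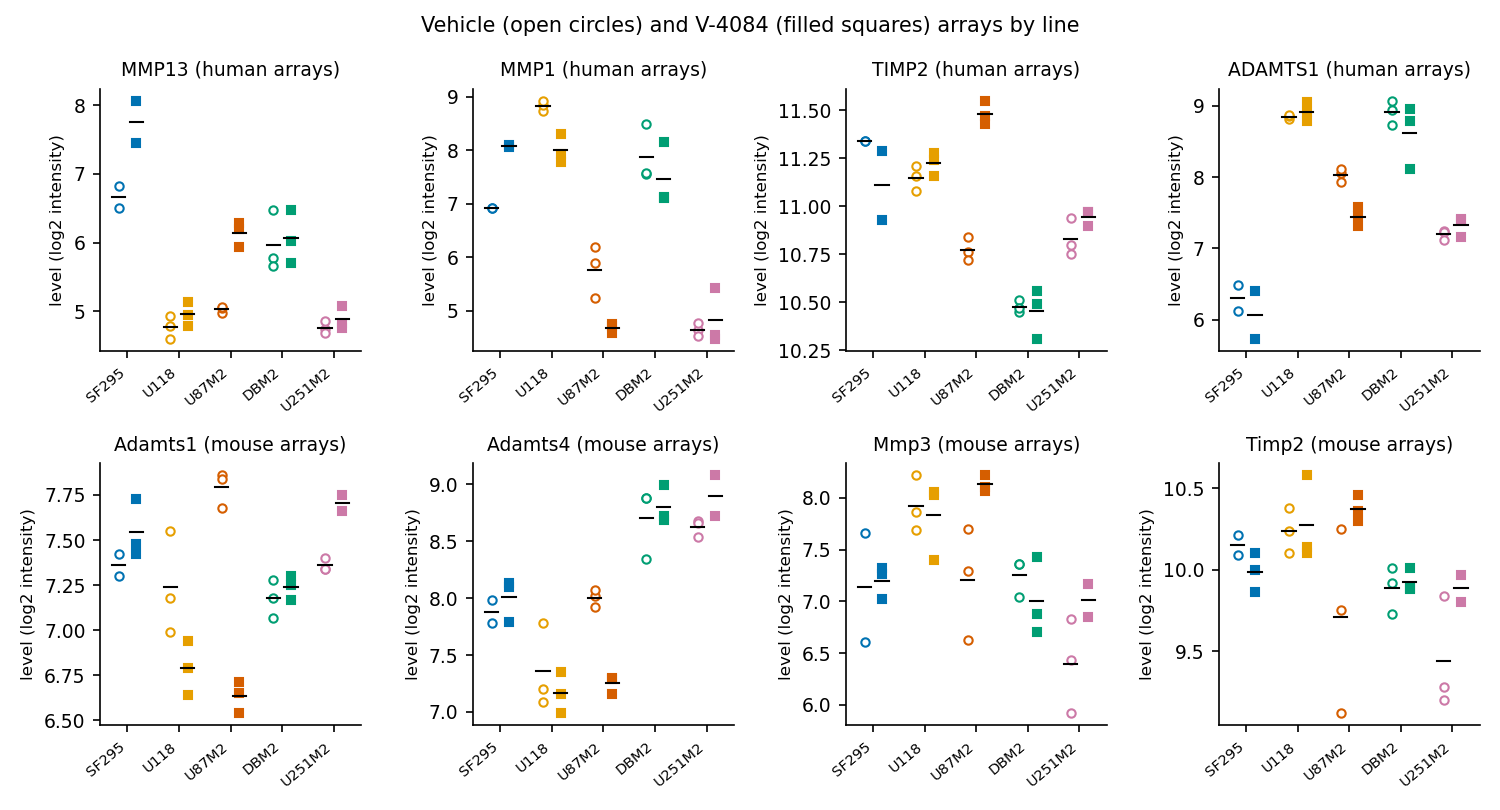
Levels (y axis, log2 intensity) of 4 human and 4 mouse members by line (x axis) on vehicle (open circles) and V-4084 arrays (filled squares), with group means as bars. In U87M2 all 8 panels show groups that do not overlap, with MMP1, ADAMTS1, Adamts1 and Adamts4 lower and the others higher with V-4084. All 8 members were called on these same arrays, so this is no separate test. Over all genes in U87M2, 39.6% on human and 18.5% on mouse arrays did not overlap.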

How the data were processed

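RNA from 28 human and 28 mouse arrays was compared within each platform. The deposited values are log2 intensities, for which the submitters' processing notes name RMA and Partek without versions. They were used as deposited. Only probe sets that name 1 gene were kept (1 human probe set names a member together with other genes), and the probe set with the highest mean represented each gene. Samples were grouped by title; 3 human arrays titled DBM2 have SF295 in other fields and were kept with DBM2.

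limma 3.58.1 (R 4.3.3) fitted 10 group means (18 residual degrees of freedom, lmFit and eBayes). Contrasts were V-4084 minus vehicle in each line, the equal-weight average of 5 lines, and F tests of differences between lines in effect and in vehicle level. P-values are two-sided, adjusted by Benjamini-Hochberg over all 18417 human or 19938 mouse genes and called under 0.05; errors are limma standard errors. Where the lower line was under the dim reference, a fold is given against that reference, as at least that fold. The fit was tested on simulated data. Each V-4084 contrast shares its vehicle arrays with the average.

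Members and lists were chosen with earlier results of these data known. Called members were named by size of difference, up to 20 for each comparison, though not all of these on mouse vehicle arrays. MMP2, MMP9 and the TIMPs were given under vehicle and in U87M2, and up to 4 called genes of each list were named. Alternatives were quantile normalization, the mean of all probe sets, a dim filter, trend and robust fits, array weights, a replicate block, omission of DBM2, of the narrow arrays or of each array, and, chosen after the data were seen, omission of U87M2. Precision is limited by the number of arrays. One gene of the MMP family is not reported here.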

Additional observations from a re-analysis of the deposited data

Results flagged for a closer look

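The V-4084 effect differed between lines by an F test for 8 human members and 1 mouse member, with adjusted p-values over all genes. The human genes were TIMP2 (0.00172), MMP16 (0.00377), MMP1 (0.00478), MMP13 (0.0187), ADAMTS12 (0.0238), ADAMTS9 (0.0357), ADAMTS14 (0.039) and ADAMTS3 (0.0476). The mouse gene was Adamts1 (6.25e-05). MMP1 had the widest spread of effects among the human genes, 2.25 on the log2 scale between SF295 (higher, not called) and U87M2 (called lower). MMP16 spanned 1.35, from U118 to DBM2, and neither of those differences was called on its own. Groups of 2 or 3 arrays were too small for the test of single outlying arrays.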

How the results depend on the processing

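Counts of called members were compared over the alternatives. The human vehicle count (34) ran from 32 to 35 and the human U87M2 count (12) from 10 to 16; the mouse vehicle count (31) ran from 26 to 31 and the mouse U87M2 count (5) from 4 to 6. Human members called in the other 4 lines were 0 as deposited, 1 with quantile normalization, 1 with the dim filter, 1 with trend and robust, 20 with array weights, 2 without DBM2 and 3 without narrow-range arrays. The human average gave 6, 3 with array weights and 0 without U87M2; differing human effects gave 8, 14 with array weights and 0 without U87M2; differing mouse effects gave 1, 2 with quantile normalization and 0 without U87M2. Left-out single arrays gave 33 to 34 and 29 to 32 vehicle calls (human and mouse), 8 to 12 and 2 to 6 in U87M2, 0 to 6 and 0 to 1 in the other lines, 1 to 9 and 0 to 0 in the average, and 3 to 11 and 1 to 2 for differing effects. The cause of these shifts was not tested.

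Within a platform, repeat numbers did not pair vehicle with V-4084 arrays of a line: their deviations over all genes correlated from -0.52 to 0.32. Across platforms the numbers did tie arrays for skeletal muscle genes (r = 0.959). With the number as a replicate block the human average gave 2 calls and differing human effects 4, and MMP16 (adjusted p = 0.076) and TIMP4 (0.0507) in U87M2 lost their calls.

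Without U87M2 the human averages of TIMP2 (-0.01) and TIMP4 (-0.02) and the mouse average of Timp1 (0.03) changed sign, none being called; so did Timp4 on mouse arrays (-0.01) without U118 V-4084 repeat 3, in a range of -0.01 to 0.06 over left-out arrays. The value of mouse Mmp2 in U87M2 passed with the dim filter (adjusted p = 0.0413), array weights (0.0353) and the replicate block (0.0459). Mmp3 lost its call with trend and robust (0.0965) and Timp2 with quantile normalization (0.069). With array weights human MMP9 in U87M2 (0.00541) and human TIMP1 in U87M2 (0.0137) passed. Dim levels limit MMP1 and ADAMTS9 in U87M2, MMP13 in every line but SF295, and MMP27 throughout.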
